A study of Homo sapiens with 6 samples.

Results

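SCEL, PPL, EVPL, TGM1, IVL and PI3 were followed by name in A549 cells with and without knockdown of CBX8. These 6 genes, of 28452 in the table, encode sciellin and the envelope precursors usually described with it, and they were taken by name for that role, with the title of the series and earlier results of these data known. The group falls into roles: the precursor sciellin (SCEL), the plakin scaffolds periplakin (PPL) and envoplakin (EVPL), the crosslinking enzyme transglutaminase 1 (TGM1), the substrate involucrin (IVL), and elafin (PI3), a protease inhibitor that is itself crosslinked. Of the 6, 5 had enough counts to be tested and IVL did not.

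A549 is an established human lung adenocarcinoma cell line. RNA sequencing covered 3 groups of 2 libraries each: cells stably carrying a control lentivirus, and cells stably carrying lentiviral hairpins called shCBX8-1 or shCBX8-2. All groups were A549 cells grown in the same serum-containing medium, with a lentivirus in the controls too. The series title names SCEL, with CDKN2C, as a gene that CBX8 represses. What distinguishes shCBX8-1 from shCBX8-2 is not stated. Nothing says that replicate libraries are from separate cultures either, so the p-values reflect only how far these samples differ, and that spread may be technical.

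The cornified envelope is a protein shell that replaces the plasma membrane of squamous cells as they terminally differentiate. Envoplakin and periplakin form its first scaffold under the membrane, involucrin, sciellin and other precursors are added, and transglutaminases join them through bonds between glutamine and lysine residues. Lung epithelium does not normally build such an envelope, though airway cells can during squamous metaplasia, while the plakins are also made by simple epithelia. CBX8 is a chromobox subunit of Polycomb repressive complex 1, which binds trimethylated lysine 27 of histone H3 and is associated with silent genes.

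Each library held 64197784 to 67169537 estimated counts, and 17985 to 18788 genes per library had a count above 0. The median absolute log2 difference between the libraries of a group was 0.116 for the controls, 0.115 for shCBX8-1 and 0.207 for shCBX8-2. In the last group the deviation of a gene from its mean followed its GC content in opposite directions in the 2 libraries, with a Spearman correlation across 12819 genes of 0.386 in replicate 1 and -0.312 in replicate 2. Levels are given as CPM, counts scaled to a common library total after scaling by the trimmed mean of M values. CBX8 itself stood at 24.6 and 26.3 CPM in control, at 7.79 and 7.70 in shCBX8-1 and at 17.7 and 13.8 in shCBX8-2, so both hairpin groups were lower and shCBX8-1 was the lower of them. The simple epithelial keratins KRT8 and KRT18 were abundant in every library, at 11729 to 17126 and 8120 to 11813 CPM, and KRT7 was at 1852 to 2576 CPM. The other markers of A549 and simple lung epithelium were lower. KRT19 was at 0.407 and 0.359 CPM in control, 4.11 and 3.97 CPM in shCBX8-1, and 0.504 and 0.652 in shCBX8-2. EPCAM was at 3.05 to 8.39 CPM. CDH1 was at 19.3 and 21.8 CPM in control, 11.3 and 10.4 CPM in shCBX8-1, and 18.5 and 17.6 in shCBX8-2. Of 9 markers of basal and squamous cells 4 passed the filter on low counts, and KRT14 and CALML5 had no counts anywhere. The summed level of the 9 was 40.2 and 26.9 CPM in control, 36.7 and 26.2 CPM in shCBX8-1 and 56.6 and 45.4 in shCBX8-2. KRT10 made up most of that sum, at 23.9 to 53.1 CPM. Some of the low squamous markers were higher with knockdown and others were not. KRT5, with 5 to 59 counts a library, was at 0.121 and 0.0747 CPM in control, 0.215 and 0.243 CPM in shCBX8-1, and 0.536 and 0.938 CPM in shCBX8-2. KRT13 was at 0 and 0.0598 CPM in control, then 0.258 to 1.05 CPM in the 4 knockdown libraries, and TP63 at 0.92 and 1.61 CPM, then 1.71 to 3.1 CPM. DSG3 was at 0.0603 and 0.0598 CPM in control, 0 and 0.121 CPM in shCBX8-1, and 0.0631 and 0.0636 in shCBX8-2. KRT1 and DSG1 had 4 and 5 counts in shCBX8-2 replicate 2 and 0 counts elsewhere. Markers of leukocytes summed to 3.32 to 7.14 CPM, of fibroblasts to 5.36 to 14.3 CPM and of endothelium to 1.88 to 5.72 CPM, with CD3E, DCN and KDR at 0 in every library, and alveolar type 2 markers to 1.27 to 4.09 CPM. The part of the squamous markers in the results below was not tested.

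SCEL lies on chromosome 13 at 77535706 to 77645263 on the plus strand of GRCh38.p14 and has 31 to 33 exons in the 3 transcripts counted here. The 250 bases before its start are shown because this is the gene whose level separated the groups most clearly in 1 direction, and those before IVL because IVL is the member with nearly no counts. Both come from a set of RefSeq promoter sequences on GRCh38.p14 that held only these 2 of the 6 genes, so the choice was limited to them. They are written 5′ to 3′ on the gene's strand, and capitals mark the letters of the motifs searched.
SCEL, chr13:77535456-77535705: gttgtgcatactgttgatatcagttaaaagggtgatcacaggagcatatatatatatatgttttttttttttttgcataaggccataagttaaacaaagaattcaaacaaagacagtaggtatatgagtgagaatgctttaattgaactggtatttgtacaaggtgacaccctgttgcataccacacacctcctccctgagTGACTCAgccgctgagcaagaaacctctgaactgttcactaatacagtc
IVL, chr1:152908296-152908545: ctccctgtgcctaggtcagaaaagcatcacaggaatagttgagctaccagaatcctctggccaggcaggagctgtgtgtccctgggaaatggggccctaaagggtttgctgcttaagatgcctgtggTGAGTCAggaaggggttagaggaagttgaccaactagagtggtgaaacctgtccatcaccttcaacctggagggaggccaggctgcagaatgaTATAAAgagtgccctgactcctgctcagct
The search covered the AP-1 letters TGACTCA, or TGAGTCA on the other strand, and the TATA box letters TATAAA, or TTTATA on the other strand. The SCEL window holds 1 AP-1 match, 49 bases before the start. The IVL window holds 1 at 123 bases and a TATA box match at 30 bases before the start. For SCEL the start is that of the RefSeq gene, 77535706. By matching GENCODE v29 models the 3 transcripts counted start at 77535674, 77535759 and 77535760. AP-1 letters occur in 4.2% and TATA box letters in 10.7% of 35116 promoters of the same length. The SCEL window has 1 CpG and 37.6% GC, the IVL window 0 CpG and 53.2% GC, and the median promoter has 11 CpG and 58% GC. As few CpG as in SCEL were found in 14.7% of promoters, and as few as in IVL in 6.06%. A match is a description of the letters and not a binding site.

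SCEL rose in both hairpin groups. Its level was 6.95 and 7.74 CPM in the control libraries, 15.5 and 19.9 CPM in shCBX8-1, and 23.2 and 26.5 CPM in shCBX8-2. All 4 knockdown libraries were above both control libraries, and the 3 groups did not overlap. The group means were 7.35 ± 0.558 CPM in control, 17.7 ± 3.08 in shCBX8-1 and 24.8 ± 2.31 in shCBX8-2 (SD, n = 2 each), 2.41 and 3.38 times the control mean. In edgeR's quasi-likelihood test, with Benjamini-Hochberg adjustment over 17115 genes and a threshold of 0.05, the log2 fold change was 1.27 ± 0.16 (SE) in shCBX8-1 (adjusted p = 0.0205) and 1.76 ± 0.17 in shCBX8-2 (adjusted p = 0.00299). For the mean of both groups against control it was 1.51 ± 0.15 (edgeR adjusted p = 0.0068). Below, a change over both groups means a change in this mean, which 1 group alone can carry. The step from shCBX8-1 to shCBX8-2, 0.49 ± 0.16, did not pass (edgeR adjusted p = 0.11). The group with the higher mean SCEL was the one with more CBX8 left.

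With 2 libraries a group, the SCEL calls depended on the control libraries, and those over both groups and in shCBX8-1 also on the shCBX8-1 libraries. Leaving out a control library moved the edgeR adjusted p to 0.123 or 0.139 for both groups together, to 0.197 or 0.224 for shCBX8-1 and to 0.056 or 0.0583 for shCBX8-2, while these log2 fold changes stayed between 1.21 and 1.83. Leaving out an shCBX8-1 library gave 0.056 or 0.0627 for both groups and 0.145 or 0.2 for shCBX8-1, while the shCBX8-2 call held (0.0207 or 0.0211). Without either shCBX8-2 library all 3 calls held, at an edgeR adjusted p of 0.000174 to 0.00106.

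**Figure D1:**
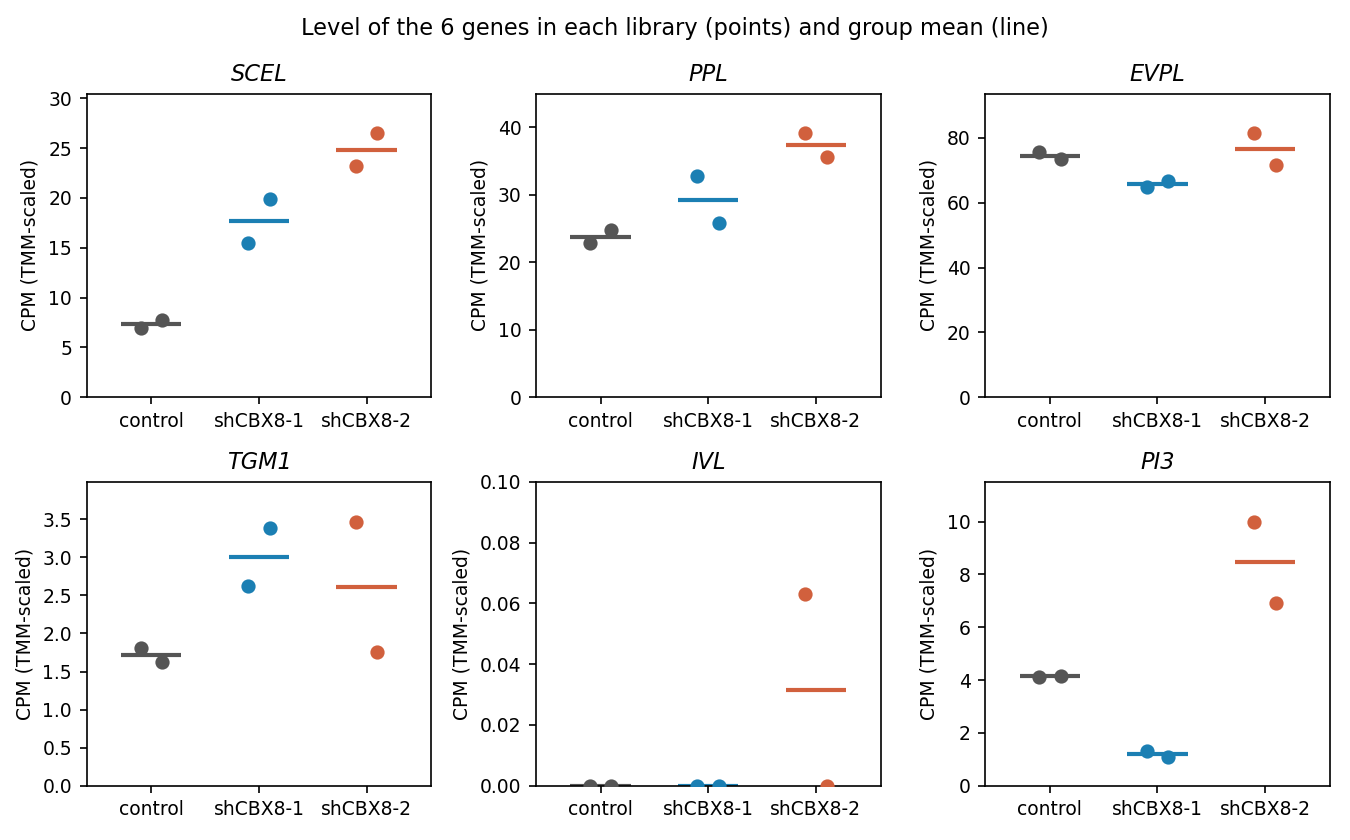
Level of each of the 6 genes in CPM (y axis, from 0, scaled for each gene) in the 3 groups (x axis). Points are single libraries and lines are group means of 2 libraries. The 4 knockdown libraries of SCEL, at 15.5 to 26.5 CPM, are above the controls, while PI3 is below the controls in shCBX8-1 and above them in shCBX8-2.

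The count table splits SCEL into 3 RefSeq transcripts that differ by short whole exons and at their ends. NM_144777 has the most exons, 33, and the most coding bases, 2064, but is the shortest, at 2386 bases, because it ends at 77644509. NM_003843 has 32 exons and 2004 coding bases and is 3081 bases long, and NM_001160706 has 31 exons and 1938 coding bases and is 3096 bases long. They end further on, at 77645263 and 77645259, by the matching GENCODE v29 models. The exons that tell them apart are given 5′ to 3′ from the GRCh38 genome, plus strand, with no letters in capitals, because they are the coding differences between the transcripts; how far the assignment of counts rests on them or on the transcript ends was not tested.
Exon 12 of NM_144777, absent from NM_003843, chr13:77593514-77593573: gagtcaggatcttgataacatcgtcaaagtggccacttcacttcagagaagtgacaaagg
Exon 9, absent from NM_001160706, chr13:77572124-77572189: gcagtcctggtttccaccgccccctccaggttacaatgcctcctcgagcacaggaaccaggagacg
Exon 19 of NM_144777, absent from NM_001160706, chr13:77604356-77604415: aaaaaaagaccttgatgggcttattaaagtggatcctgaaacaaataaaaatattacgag
They are 60, 66 and 60 bases long, all multiples of 3.

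NM_144777 took most SCEL counts in control and shCBX8-1 and close to an equal part with NM_003843 in shCBX8-2. It was assigned 302 and 483 counts in control, 1011 and 886 counts in shCBX8-1, and 729 and 831 in shCBX8-2. That is 65.5 and 93.2% of SCEL counts in control, 100 and 67.6% of them in shCBX8-1, and 49.6 and 49.9% in shCBX8-2. The share fell in a narrow range in shCBX8-2 and was spread widely in the other groups. NM_003843 was assigned 159 and 35 counts in control, 0 and 424 counts in shCBX8-1, and 703 and 777 in shCBX8-2. The 0 and the 424 belong to libraries of the same group, so the split between these transcripts differed as much within shCBX8-1 as between groups.

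NM_001160706, which lacks exons 9 and 19, had counts only in shCBX8-2. It had 0 counts in both control and both shCBX8-1 libraries and 39 and 56 counts in shCBX8-2, 2.65 and 3.37% of SCEL there. Against a floor of 3 counts over the group, its level in shCBX8-2 was at least 31.2-fold higher than in control and at least 31.2-fold higher than in shCBX8-1, a bound that covers counting error only. At the level of transcripts no change of SCEL passed: edgeR called 0 of its 3 transcripts in any contrast, with 1 of 3 at an unadjusted p under 0.05 in both groups against control and in shCBX8-1, 2 in shCBX8-2 and 1 between the hairpin groups. Of all 40859 transcripts tested it called 0 in each contrast against control (0%) and 1 between the hairpin groups (0.00245%). For NM_144777 the log2 fold change was 1.29 ± 0.32 in shCBX8-1 and 1.06 ± 0.32 in shCBX8-2 (edgeR adjusted p = 0.528 and 0.41). Which step divided the counts among transcripts is not given in the sources used here.

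SCEL-AS1, a non-coding gene inside SCEL at 77599755 to 77606551 on chromosome 13, had 0 counts in all 6 libraries. Whether counting used strand is not stated, so reads of SCEL and of an antisense transcript cannot be told apart.

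The scaffold genes moved less than SCEL. PPL on chromosome 16 (4882507 to 4937148) encodes periplakin, which links the envelope to intermediate filaments. Its level was 22.8 and 24.7 CPM in control, 32.7 and 25.8 CPM in shCBX8-1, and 39.1 and 35.5 in shCBX8-2. All 4 knockdown libraries were above both controls, though the lower shCBX8-1 library by little. PPL rose in shCBX8-2, by 0.65 ± 0.14 log2 (edgeR adjusted p = 0.0298), and the change in shCBX8-1, 0.30 ± 0.14, did not pass (edgeR adjusted p = 0.344). Over both groups it was 0.48 ± 0.13 (edgeR adjusted p = 0.0731). The shCBX8-2 call was lost without control replicate 1 (0.194), control replicate 2 (0.158) or shCBX8-1 replicate 1 (0.0503), while the DESeq2 Wald test passed PPL over both groups (adjusted p = 0.00586).

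EVPL on chromosome 17 (76006845 to 76027306) encodes envoplakin, the partner of periplakin. It was at 75.6 and 73.4 CPM in control, 64.8 and 66.6 CPM in shCBX8-1, and 81.5 and 71.7 in shCBX8-2. The shCBX8-1 libraries were below both controls and the shCBX8-2 libraries lay on either side of them. No contrast passed: the log2 fold changes were -0.18 ± 0.09 in shCBX8-1 (edgeR adjusted p = 0.377) and 0.04 ± 0.09 in shCBX8-2 (edgeR adjusted p = 0.812), and 0.22 ± 0.09 between the hairpin groups (edgeR adjusted p = 0.18).

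EVPL is also counted as 2 transcripts, and here 1 control library stood apart. NM_001320747 keeps 66 bases at the end of its exon 13 that NM_001988 lacks. The stretch is shown 5′ to 3′ on the minus strand of chromosome 17 because only its presence separates the transcripts at this exon.
EVPL, chr17:76018095-76018160: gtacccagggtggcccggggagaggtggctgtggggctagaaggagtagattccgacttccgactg
NM_001320747 was assigned 1894 counts in control replicate 1 and 45 in control replicate 2, 25 and 24 in shCBX8-1, and 80 and 80 in shCBX8-2. It made up 37.8% of EVPL counts in control replicate 1 and 0.546 to 1.77% in the other 5 libraries. The gene total of that library, 5014 counts, was close to the 4912 of the other control, so the difference is in the assignment to transcripts. The same control library also gave NM_003843 of SCEL 34.5% against 6.76% in its replicate. Whether these shares reflect the RNA or the counting was not tested.

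**Figure D2:**
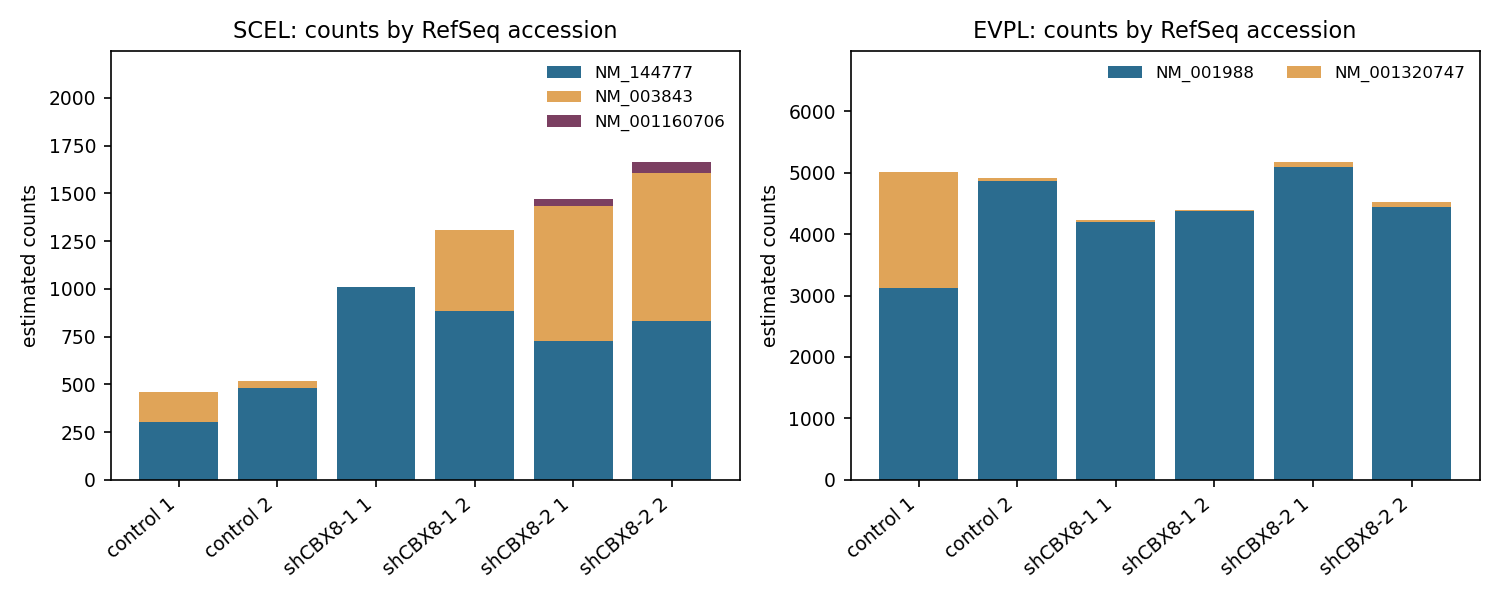
Estimated counts (y axis, from 0) assigned to each RefSeq transcript of SCEL and of EVPL in each of the 6 libraries (x axis). NM_001160706 of SCEL has counts in the shCBX8-2 libraries only, 39 and 56, and NM_001320747 of EVPL has 1894 counts in control replicate 1 and 24 to 80 in the others.

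TGM1, on chromosome 14 at 24249114 to 24263177, encodes the membrane-bound transglutaminase that crosslinks envelope precursors. Its level was low, 1.81 and 1.63 CPM in control, 2.62 and 3.38 CPM in shCBX8-1, and 3.47 and 1.75 in shCBX8-2. The shCBX8-1 libraries were above both controls, while the second shCBX8-2 library lay among the controls and its replicate was 1.98 times as high. No contrast passed, with log2 fold changes of 0.80 ± 0.36 in shCBX8-1 and 0.60 ± 0.36 in shCBX8-2 (edgeR adjusted p = 0.322 and 0.323). Without shCBX8-2 replicate 2 the change in that group was 1.01 (edgeR adjusted p = 0.034) and that over both groups 0.91 (edgeR adjusted p = 0.0266). Without shCBX8-2 replicate 1 they were 0.04 (edgeR adjusted p = 0.956) and 0.42 (edgeR adjusted p = 0.295), so the value in that group was set by which library was kept. The TGM1 transcript is 58.7% GC, and with counts corrected for GC content in each library, an alternative chosen after seeing the data, the shCBX8-2 value was 0.57 (edgeR adjusted p = 0.28).

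IVL, on chromosome 1 at 152908546 to 152911886, encodes involucrin, the classical substrate of transglutaminase 1 and a marker of squamous commitment. It had 0 counts in 5 libraries and 4 counts in shCBX8-2 replicate 1, which is 0.0631 CPM. A count of 0 allows up to 3 counts. That is 0.0447 to 0.0467 CPM of the library totals, without the scaling by trimmed mean of M values used for the other levels. Involucrin RNA was therefore at or near the limit of detection in all 6 libraries. IVL was below the filter and was not tested.

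PI3 moved in opposite directions in the 2 hairpin groups. It lies on chromosome 20 at 45174902 to 45176544 and encodes elafin, a secreted inhibitor of neutrophil elastase that transglutaminase can attach to other proteins. Its level was 4.12 and 4.17 CPM in control, 1.33 and 1.09 CPM in shCBX8-1, and 10.0 and 6.93 in shCBX8-2. The groups did not overlap, with shCBX8-1 below and shCBX8-2 above control. The means were 4.14 ± 0.0374, 1.21 ± 0.171 and 8.47 ± 2.18 CPM (SD, n = 2 each), or 0.293 and 2.04 times control. PI3 fell by 1.77 ± 0.25 log2 in shCBX8-1 (edgeR adjusted p = 0.0243) and rose by 1.03 ± 0.23 in shCBX8-2 (edgeR adjusted p = 0.0327). The difference between the hairpin groups, 2.80 ± 0.25, passed (edgeR adjusted p = 0.00209) and did so under every alternative run. The mean over both groups, -0.37 ± 0.20, did not pass (edgeR adjusted p = 0.324).

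Against control, both PI3 calls were lost in most fits that left out a library. In shCBX8-1 the edgeR adjusted p was 0.172 or 0.218 without a control library and 0.223 or 0.207 without an shCBX8-1 library. In shCBX8-2 it was 0.178 or 0.19 without a control library, 0.0685 or 0.0699 without an shCBX8-1 library and 0.0687 without shCBX8-2 replicate 1. The shCBX8-1 call held without either shCBX8-2 library (0.00186 or 0.00134), and the shCBX8-2 call held without shCBX8-2 replicate 2 (0.00371).

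**Figure D3:**
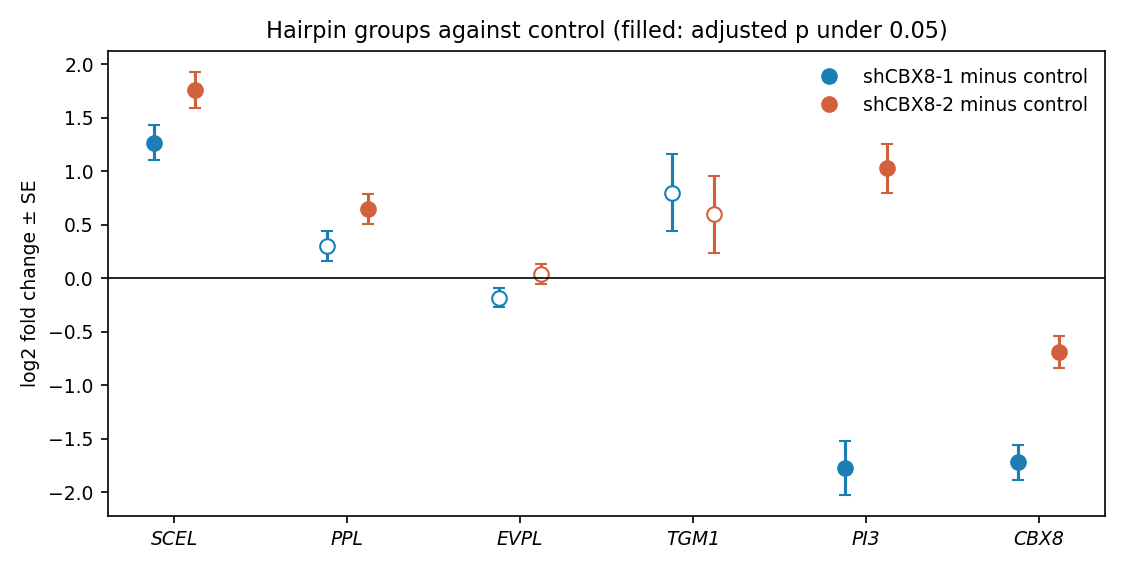
Log2 fold change against control (y axis, error bars are SE) of the 5 tested genes and of CBX8, the targeted gene (x axis), in shCBX8-1 and shCBX8-2. Each is from 2 libraries against 2, and CBX8 is at -1.72 and -0.69. Filled points have an adjusted p under 0.05; SCEL is above 0 in both groups, at 1.27 and 1.76, and PI3 is at -1.77 and 1.03.

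Counted over the group, 1 of the 5 tested genes rose over both hairpin groups together (SCEL) and 0 fell, where 6.79% of all 17115 genes were called, 3.31% higher and 3.48% lower. In shCBX8-1 SCEL rose and PI3 fell, beside 2.47% of all genes called, 1.34% higher and 1.13% lower. In shCBX8-2 SCEL, PPL and PI3 rose and 0 fell, beside 12.7% of all genes called, 6.03% higher and 6.64% lower. Between the hairpin groups only PI3 was called, higher in shCBX8-2, beside 9.82% of all genes called, 4.05% higher and 5.77% lower. SCEL was the only one of the 5 called higher in both groups, as were 0.771% of all genes, and PI3 was 1 of 36 genes, 0.21%, called in both in opposite directions. The median log2 fold change of the 5 was 0.30 in shCBX8-1 and 0.65 in shCBX8-2, against -0.01 and -0.04 for all genes tested. With 5 genes these medians describe the group and nothing more. The contrasts against control share the control libraries.

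Per kilobase of transcript, which allows levels to be compared between genes, EVPL was the most abundant of the 6 in control, at 11.7 and 11.1 CPM per kilobase. PI3 followed at 7.13 and 7.23, then PPL at 3.65 and 3.97 and SCEL at 2.69 and 3.19, with TGM1 at 0.652 and 0.587 and IVL at 0. These neighbours in the order did not overlap between the libraries. In shCBX8-1 SCEL, at 6.5 and 7.72, had moved above PPL, at 5.25 and 4.14, and PI3, at 2.31 and 1.89, had moved below it. In shCBX8-2 PI3 was at 17.3 and 12, EVPL at 12.3 and 10.9, SCEL at 8.61 and 9.83 and PPL at 6.27 and 5.69. There PI3 and EVPL overlapped, and SCEL again stood above PPL. TGM1 stayed at or below 1.25 and IVL at or below 0.0293 CPM per kilobase in every library.

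Other precursors of the envelope had few or no counts. Of 45 further envelope and epidermal matrix genes, such as loricrin, filaggrin and the late cornified envelope family, 19 had 0 counts in every library and 13 had counts below the filter. Of the 13 tested, 2 rose in the mean over both hairpin groups, 0 fell and 11 did not pass, where 3.31% of all genes rose and 3.48% fell. The median log2 fold change was 0.15 beside -0.04 for all genes (-0.06 in shCBX8-2). In shCBX8-1 alone 0 of the 13 were called, beside 2.47% of all genes. The 2 that rose in the mean were S100A11 and S100A10, calcium-binding proteins made by many cell types and also found in envelopes. S100A11 stood at 420 and 412 CPM in control, 513 and 520 CPM in shCBX8-1 and 657 and 591 in shCBX8-2, so the groups did not overlap. It rose by 0.58 ± 0.07 log2 in shCBX8-2 (edgeR adjusted p = 0.00523), and its 0.31 ± 0.07 in shCBX8-1 did not pass (edgeR adjusted p = 0.0799). S100A10 rose by 0.54 ± 0.07 in shCBX8-2 (edgeR adjusted p = 0.00679), and in shCBX8-1 it was at 0.07 ± 0.07 (edgeR adjusted p = 0.707).

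Among 23 transglutaminases and enzymes of the lipid envelope, 14 were tested, 1 rose and 1 fell over both groups, and 12 did not pass (median -0.06), beside 6.79% of all genes called. TGM2, the ubiquitous tissue transglutaminase, was at 317 and 377 CPM in control, 297 and 294 CPM in shCBX8-1 and 948 and 833 in shCBX8-2. Only the shCBX8-2 libraries stood above control. TGM2 rose by 1.36 ± 0.10 log2 in shCBX8-2 (edgeR adjusted p = 0.00171), and the difference from shCBX8-1 was 1.59 ± 0.10 (edgeR adjusted p = 0.000899). SULT2B1, which makes cholesterol sulfate, was at 13 and 13.6 CPM in control, 4.03 and 5.78 CPM in shCBX8-1 and 7.88 and 6.57 in shCBX8-2. All 4 knockdown libraries were below control, and it fell by 1.44 ± 0.21 log2 in shCBX8-1 (edgeR adjusted p = 0.0255) and by 0.88 ± 0.20 in shCBX8-2 (edgeR adjusted p = 0.0357).

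Of 19 other plakins and desmosome proteins, the junctions to which the envelope is anchored, 14 were tested. Over both groups 1 rose and 0 fell, where 3.31% of all genes rose and 3.48% fell, with a median of -0.16. PLEC, the plakin plectin, was at 999 and 948 CPM in control, 1407 and 1252 CPM in shCBX8-1 and 1659 and 1605 in shCBX8-2. Its groups were ordered as those of SCEL. PLEC rose by 0.45 ± 0.07 log2 in shCBX8-1 (edgeR adjusted p = 0.0336) and by 0.75 ± 0.07 in shCBX8-2 (edgeR adjusted p = 0.00323). PKP3, the desmosomal plakophilin 3, was at 134 and 130 CPM in control, 146 and 121 CPM in shCBX8-1 and 254 and 212 in shCBX8-2. It rose in shCBX8-2 by 0.82 ± 0.12 (edgeR adjusted p = 0.00892), with 0.02 ± 0.12 in shCBX8-1 (edgeR adjusted p = 0.969). In shCBX8-2 3 of the 14 rose and 0 fell, where 6.03% of all genes rose and 6.64% fell, the other being desmoplakin (DSP), which was named after its values were seen.

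Of 26 epithelial proteases and protease inhibitors 11 were tested and 1, SLPI, was called over both groups, beside 6.79% of all genes, with a median of 0.41. SLPI encodes secretory leukocyte protease inhibitor, a relative of elafin in the same whey acidic protein family. It stood at 30.4 and 31.1 CPM in control, 20.2 and 21.2 CPM in shCBX8-1, and 115 and 109 in shCBX8-2. As with PI3, shCBX8-1 was below and shCBX8-2 above both controls. SLPI fell by 0.57 ± 0.08 log2 in shCBX8-1 (edgeR adjusted p = 0.0275) and rose by 1.86 ± 0.09 in shCBX8-2 (edgeR adjusted p = 0.000753), a difference of 2.43 ± 0.09 (edgeR adjusted p = 0.000236). CSTB, the cysteine protease inhibitor cystatin B, rose in shCBX8-2 by 0.47 ± 0.09 (edgeR adjusted p = 0.0241).

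Of 25 regulators of squamous differentiation 20 were tested; 3 rose, 1 fell and 16 did not pass over both groups, beside 6.79% of all genes called, with a median of -0.14. FOSL1, a subunit of AP-1, was at 41.0 and 37.8 CPM in control, 93.0 and 77.9 CPM in shCBX8-1 and 61.8 and 63 in shCBX8-2. It was above control in all 4 knockdown libraries and higher in shCBX8-1, the reverse of the order in SCEL. FOSL1 rose by 1.12 ± 0.11 log2 in shCBX8-1 (edgeR adjusted p = 0.00862) and by 0.66 ± 0.11 in shCBX8-2 (edgeR adjusted p = 0.0122). NOTCH1, a receptor that promotes commitment of keratinocytes, was at 42.4 and 43.0 CPM in control and 64 to 70.6 CPM in the 4 knockdown libraries, and rose by 0.72 ± 0.08 and 0.61 ± 0.08 (edgeR adjusted p = 0.012 and 0.00629). GATA3, a transcription factor of epidermal lipid synthesis, was at 9.48 and 9.82 CPM in control and 3.79 to 5.18 CPM with knockdown, and fell by 1.10 ± 0.19 and 0.97 ± 0.19 (edgeR adjusted p = 0.0416 and 0.0226). KLF4, a barrier factor of the epidermis, rose in shCBX8-2 by 1.05 ± 0.11 (edgeR adjusted p = 0.00399), with 0.16 ± 0.11 in shCBX8-1 (edgeR adjusted p = 0.548).

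Of 16 keratins of stratified epithelium 10 were tested, and 3 rose, 0 fell and 7 did not pass over both groups, beside 6.79% of all genes called, with a median of 0.70. KRT15, a keratin of basal cells, was at 14.6 and 17.2 CPM in control, 24.2 and 22.3 CPM in shCBX8-1 and 70.5 and 60.6 in shCBX8-2. The knockdown libraries were all above control, and KRT15 rose by 2.04 ± 0.14 log2 in shCBX8-2 (edgeR adjusted p = 0.00131), with 0.55 ± 0.13 in shCBX8-1 (edgeR adjusted p = 0.0887). KRT16, a keratin of stressed epidermis, was at 1.13 and 1.08 CPM in control, 2.10 and 1.82 CPM in shCBX8-1, and 6.75 and 3.97 in shCBX8-2. It rose in shCBX8-2 by 2.28 ± 0.31 (edgeR adjusted p = 0.00737), with 0.83 ± 0.31 in shCBX8-1 (edgeR adjusted p = 0.236). KRT4, a keratin of mucosal epithelia, was at 5.20 and 5.13 CPM in control and 6.69 to 10.3 CPM with knockdown, and rose in shCBX8-1 by 0.99 ± 0.17 (edgeR adjusted p = 0.0373). In shCBX8-2 its 0.56 ± 0.17 did not pass (edgeR adjusted p = 0.0735). In shCBX8-2 4 of the 10 rose and 0 fell, where 6.03% of all genes rose and 6.64% fell. Besides KRT15 and KRT16 these were KRT80 (0.41 ± 0.10, edgeR adjusted p = 0.0368) and KRT13, a mucosal keratin. KRT13 was at 0 and 0.0598 CPM in control, 0.552 and 0.258 CPM in shCBX8-1, and 0.962 and 1.05 in shCBX8-2. Of 78 called values of the named genes outside the 6, 60 and 62 were lost without a control library and 52 and 55 without an shCBX8-1 library.

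**Figure D4:**
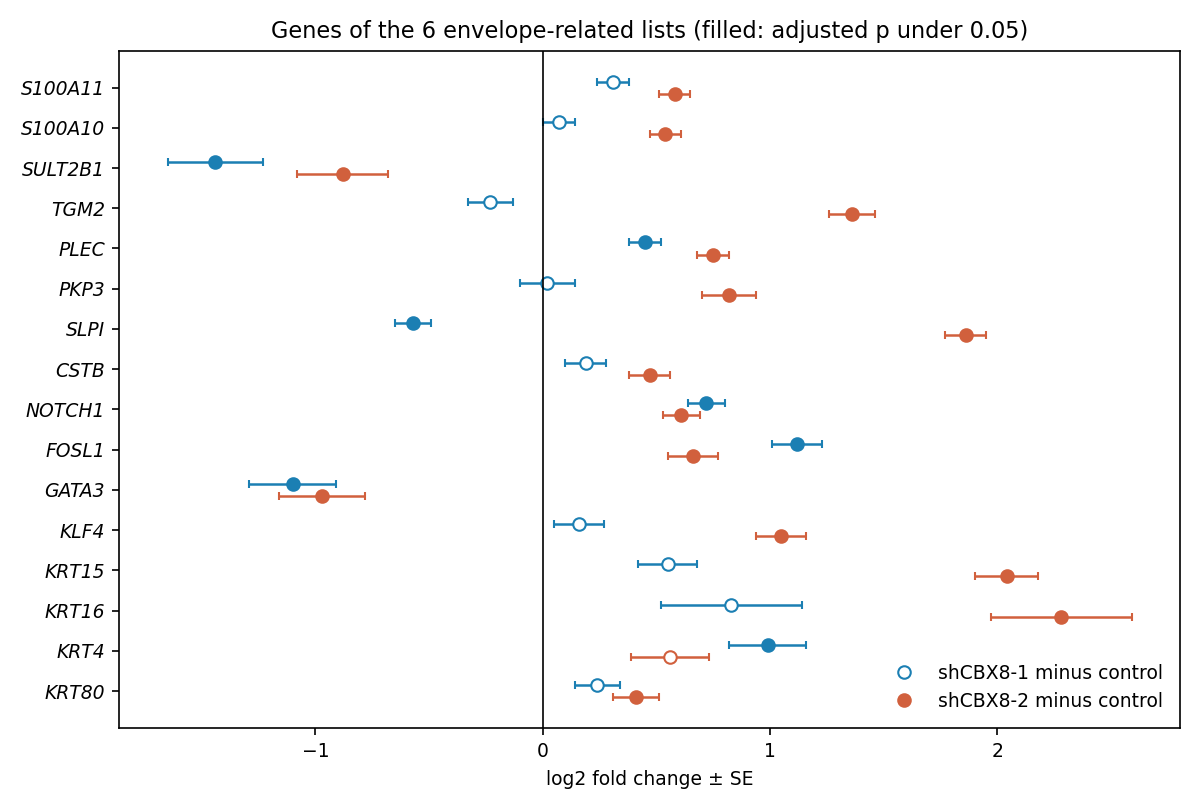
Log2 fold change against control (x axis, error bars are SE) in shCBX8-1 and shCBX8-2, with 2 libraries a group. Genes (y axis) are those named by rule from the 6 envelope-related gene lists that were called in any contrast against control. Named genes without such a call are not drawn. KRT13, called in shCBX8-2, is also left out. Filled points have an adjusted p under 0.05. PLEC, NOTCH1 and FOSL1 are filled above 0 and SULT2B1 and GATA3 below 0 in both groups, while SLPI is filled at -0.57 and at 1.86.

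Genes whose pattern was most like that of SCEL were ranked by the root mean square difference of log2(CPM + 0.5), centred per gene, over the 6 libraries, among 13661 genes. The closest were AQP3 (0.159), MSLN (0.172), PLEK2 (0.186), DCLK1 (0.198) and SUSD2 (0.208), all in log2 units. AQP3, a water and glycerol channel of epidermis and airway, was at 33.3 and 39.9 CPM in control, 85.0 and 85.8 CPM in shCBX8-1, and 131 and 111 in shCBX8-2. MSLN, which encodes the surface protein mesothelin, was at 9.26 and 8.50, 22.7 and 22.0, and 29.3 and 27.2 CPM. In both, all 4 knockdown libraries were above control and the shCBX8-2 libraries were the highest, as in SCEL; the step between the hairpin groups passed for AQP3 (0.50 ± 0.12, edgeR adjusted p = 0.0462) and did not for MSLN (0.34 ± 0.12, edgeR adjusted p = 0.122). PLEK2 (pleckstrin 2) went from 2.29 and 2.90 CPM in control to 10.2 and 8.65 in shCBX8-2, and DCLK1 (a microtubule-associated kinase) from 7.18 and 7.16 to 17.5 and 22.9. SUSD2, a membrane protein with a sushi domain, went from 37.6 and 39.4 CPM to 117 and 109. The ranking chose these genes for their likeness in the same libraries, so it is a description of 6 libraries.

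**Figure D5:**
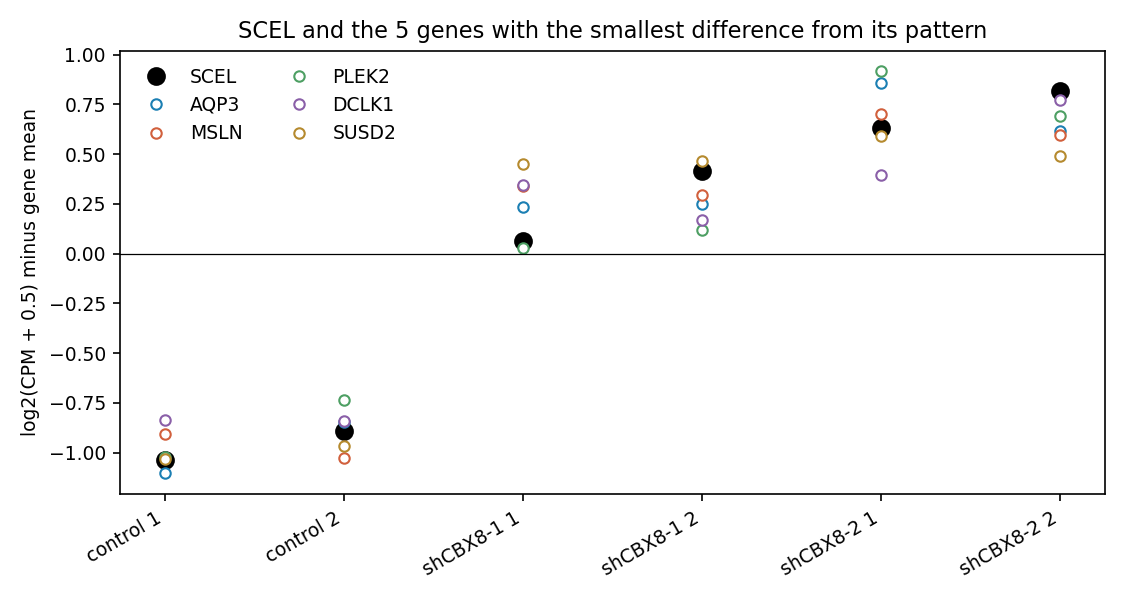
Level of SCEL and of the 5 genes nearest to its pattern as log2(CPM + 0.5) minus the gene's own mean (y axis) in each of the 6 libraries (x axis). The points of all 6 genes lie below 0 in the 2 control libraries, where SCEL was at 6.95 and 7.74 CPM. They reach their upper values in the knockdown libraries.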

How the data were processed

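The deposited table holds expected counts per RefSeq transcript, which the authors did not scale; the submitters' processing notes name HISAT2 2.2.1, StringTie 2.2.1, DESeq2 1.34.0 and hg38. Every value was a whole number. For the annotation, the counting step and the use of strand, nothing is stated in the labels. Of 84787 transcripts, 83963 were matched to genes by RefSeq (GRCh38.p14) and 357 by GENCODE v29, and 467 stayed as entries of their own; counts were summed to 28452 genes.

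In R 4.3.3 with edgeR 4.0.16, filterByExpr (minimum count 10, minimum total 15) kept 17115 genes. After TMM scaling (trimmed mean of M values), 1 quasi-likelihood fit covered the 3 groups and 6 libraries. The common dispersion was 0.0369, with 3 residual degrees of freedom. P-values are two-sided and were adjusted by Benjamini-Hochberg over the 17115 genes; the threshold was 0.05. Standard errors derive from the F statistic. Transcripts (40859 tested) were fitted the same way. The fit was also run on simulated counts. These gave every gene the same dispersion, 0.0369, and every knockdown library the same change. They left out the wider spread of the shCBX8-2 libraries and any difference between hairpins, so the run does not bear on calls that depend on those.

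Knockdown over both groups is the mean of shCBX8-1 and shCBX8-2 minus control. Named genes are the 6 members, CBX8, up to 5 genes of each of 6 lists with the smallest p over both groups, and the 5 genes nearest in pattern to SCEL. Members and lists were chosen with earlier results of these data known. Lengths are those of GENCODE v29 transcripts, weighted by counts. A floor of 3 counts stands for a count of 0. Alternatives were DESeq2 1.42.0 (size factors and Wald test), no filter, each library left out, a replicate block, only the libraries compared, repeated accessions left out, no abundance trend, 1 knockdown group and, chosen after seeing the data, GC offsets.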

Additional observations from a re-analysis of the deposited data

Results flagged for a closer look

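For 16 of the genes named in the text, and also for DSP, the hairpin groups differed by edgeR's test of shCBX8-2 minus shCBX8-1. CBX8 itself was higher in shCBX8-2 by 1.02. Among the 6 envelope genes this was PI3, with a log2 difference of 2.80 ± 0.25. Of the other named genes SLPI differed by 2.43, TGM2 by 1.59, KRT15 by 1.5, KRT16 by 1.45, KLF4 by 0.89, PKP3 by 0.80, PLEK2 by 0.78, AQP3 by 0.50 and S100A10 by 0.47, all higher in shCBX8-2, and FOSL1 by -0.45, lower there. KLK5, a kallikrein protease, had 0 counts in shCBX8-1 and 55 counts in shCBX8-2, at least 18.1-fold higher against a floor of 3 counts over the group; its fitted difference of 7.83 is no bound. Of genes near PI3 and SCEL, described under the other observations, TOMM34 differed by 1.02, CCN5 by 0.99 and SLAIN1 by -0.89. The share of all 17115 genes called in this contrast was 9.82%.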

How the results depend on the processing

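With 2 libraries a group and 3 residual degrees of freedom, leaving out a library changed most calls. Of 7 called values of the 6 genes, 6 were lost without either control library, 5 and 4 without the shCBX8-1 libraries, 1 without shCBX8-2 replicate 1 and 0 without replicate 2; 5 were lost with the abundance trend of the dispersion removed and 1 in a fit of only the libraries compared. None of the 7 changed sign. Of 78 called values of other named genes, 60 and 62 were lost without a control library.

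Genes called in the 4 contrasts (both groups, shCBX8-1, shCBX8-2 and shCBX8-2 minus shCBX8-1) numbered 1162, 423, 2169 and 1681. By the DESeq2 Wald test they were 2441, 1482, 3560 and 2958, with GC offsets (chosen after seeing the data) 2287, 1106, 3356 and 2714, and without the abundance trend 80, 0 (2716 at an unadjusted p under 0.05), 957 and 654. In a fit of only the libraries compared the last 3 were 2426, 995 and 638, and with the 4 knockdown libraries as 1 group 27 were called. Leaving out 1 library gave 1 to 4467, 0 to 2327, 139 to 5515 and 126 to 5104; the 0 in shCBX8-1 occurred without control replicate 2 (1698 at an unadjusted p under 0.05) and without either shCBX8-1 library (1925 and 1962).

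For SCEL the change over both groups was 1.51 (edgeR adjusted p = 0.0511) and that in shCBX8-1 1.27 (edgeR adjusted p = 0.1) without the abundance trend, and 1.53 (edgeR adjusted p = 0.0876) with 1 knockdown group. Leave-one-out ranges were 1.42 to 1.60, 1.09 to 1.45, 1.66 to 1.86 and 0.30 to 0.66 in the 4 contrasts. The difference between the hairpin groups passed by DESeq2 Wald (0.50, adjusted p = 0.0479) and with GC offsets (0.66, edgeR adjusted p = 0.033), and without shCBX8-2 replicate 1 (0.59, edgeR adjusted p = 0.0421). Direction turned in 3 values, of which 0 had been called: EVPL in shCBX8-2 without its replicate 1 (leave-one-out range -0.04 to 0.13), TGM1 between the hairpin groups without shCBX8-2 replicate 2 (range -0.77 to 0.21) and PI3 with 1 knockdown group (0.22). The cause of these changes was not tested.

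The labels number the libraries 1 and 2 in each group, but same-numbered libraries did not deviate together: the correlations of their deviations were 0.00891, -0.0174 and 0.0462 for the 3 pairs of groups. A replicate block gave 696, 173, 1684 and 1082 called genes and changed no call of the 6 genes. Of the 78 called values of other named genes the block lost 16. Between the hairpin groups these included AQP3 (edgeR adjusted p = 0.0791), PLEK2 (0.0778), KLK5 (0.0778) and FOSL1 (0.0608). Against control they included SLPI (edgeR adjusted p = 0.0648), GATA3 (0.0675), KRT4 (0.0675) and SULT2B1 (0.0517) in shCBX8-1. In shCBX8-2 they included SULT2B1 (edgeR adjusted p = 0.0583) and KRT13 (0.061). SCEL was 1.51 over both groups.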

Other observations

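Genes around PI3 and SCEL were read after their values had been seen, within 500 kilobases on either side and by RefSeq positions on GRCh38.p14. Of 29 neighbours of PI3 on chromosome 20, 14 were tested; 4 were called in shCBX8-1, 5 in shCBX8-2 and 3 between the hairpin groups, beside 2.47, 12.7 and 9.82% of all genes. TOMM34, a cochaperone of mitochondrial import, was at 72.3 and 67.7 CPM in control, 46.1 and 44.5 CPM in shCBX8-1 and 96.4 and 87.2 in shCBX8-2. Like PI3 and SLPI, it was below control in shCBX8-1 and above it in shCBX8-2, with log2 fold changes of -0.63 ± 0.09 and 0.39 ± 0.09 (edgeR adjusted p = 0.0255 and 0.0342). These 3 are among 18 genes, 0.105% of those tested, that were called lower in shCBX8-1 and higher in shCBX8-2. CCN5, which encodes a secreted matricellular protein, was at 65.8 CPM in both control libraries, 45.3 and 46.0 in shCBX8-1, and 101 and 80.3 in shCBX8-2. Its fall in shCBX8-1, -0.53 ± 0.12, did not pass (edgeR adjusted p = 0.0752), and in shCBX8-2 it rose by 0.46 ± 0.12 (edgeR adjusted p = 0.0469).

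The neighbours did not all move this way. SDC4, the cell surface proteoglycan syndecan 4, was at 41.2 and 35.1 CPM in control and 65.1 to 70.1 CPM with knockdown, and rose by 0.82 ± 0.10 log2 in each group (edgeR adjusted p = 0.0191 and 0.00582). RIMS4, a protein of the synaptic active zone, fell from 15.4 and 15.9 CPM to 7.05 and 7.70 in shCBX8-1 and to 10.0 and 8 in shCBX8-2 (edgeR adjusted p = 0.0255 and 0.0219). Of the 5 neighbours of SCEL on chromosome 13, 3 were tested (MYCBP2, SLAIN1 and EDNRB) and 0 were called against control in either group by edgeR. SLAIN1, a microtubule-binding protein, was at 4.19 and 5.01 CPM in control, 6.99 and 8.40 CPM in shCBX8-1, and 3.81 and 4.50 in shCBX8-2. It was lower in shCBX8-2 than in shCBX8-1 by a log2 difference of -0.89 ± 0.20 (edgeR adjusted p = 0.0374), opposite in order to SCEL.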
